A study of Mus musculus with 5 samples.

Results

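Genes for the uptake and breakdown of glucose and fructose in the liver were followed in single hepatocytes of mice that had fed on chow and sucrose water and then fasted. The set held 8 genes, chosen by symbol: Slc2a2, Gckr, Khk, Pfkl, Pfkfb1, Pfkfb3, Pklr and Mlxipl. All 8 were found among the 32285 genes measured. The mice were male wild-type (WT) C57BL/6J animals on a normal chow. They were trained for 3 days on 16 h without food and 8 h with food per day. On the day of the experiment all of them drank water with 20% sucrose beside the chow. The fed library (0 h) was made after 4 h of feeding, and 4 further libraries came 4, 8, 16 and 24 h after food and sucrose water were taken away. In time order they were taken at clock hours 13, 17, 21, 5 and 13. The length of fasting and the time of day cannot be told apart, except between 24 h and 0 h. The series title asks how the expression of liver genes moves in space from feeding to fasting and starvation. Each time point was 1 library of isolated hepatocytes (10x Genomics 3' chemistry), and the sources used here do not give the number of mice behind it. No difference between time points therefore has a replicate check, and no p-value is given. Each compares 2 libraries, not 2 feeding states.

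Hepatocytes take up glucose and fructose through the transporter GLUT2, which Slc2a2 encodes. Gckr encodes a regulatory protein of hepatic sugar metabolism. Fructose is phosphorylated by ketohexokinase (Khk) and enters glycolysis below its main control point, phosphofructokinase, whose liver subunit is Pfkl. Pfkfb1 and Pfkfb3 encode bifunctional enzymes that make and remove the sugar phosphate that activates phosphofructokinase. Pklr encodes liver pyruvate kinase, the last step of glycolysis. Mlxipl encodes ChREBP, a transcription factor that responds to sugar and has Pklr among its textbook targets. Sugar feeding with insulin is known to favour this pathway in the liver, and fasting to favour the opposite one, glucose production.

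The gate on hepatocytes asked for at least 1000 UMIs (unique molecular identifiers, each a counted RNA molecule), at least 500 genes and 2 to 30% mitochondrial UMIs. It kept 28810 of 50000 barcodes: 7826, 4567, 2716, 9125 and 4576 in the order 0, 4, 8, 16 and 24 h. Levels are UMIs of a gene per 1000000 nuclear-encoded UMIs (CPM), summed over these cells. Each library gave 33521626 to 45532684 nuclear-encoded UMIs in these cells, with a median of 4391 to 15005 UMIs per cell. The 95% intervals are exact Poisson intervals for levels and exact conditional binomial intervals for ratios. They cover counting error only. All 9 hepatocyte markers measured were at 1000 CPM or more in every library. Of the 10 endothelial markers none reached 1000 CPM, and their summed level was 109 CPM at 0 h and 13.96 to 38.8 CPM in the fasted libraries. The summed markers of Kupffer cells (0.148 to 47.8 CPM), stellate cells (0.835 to 20.1), lymphocytes (0.0296 to 3.89), neutrophils (0 to 0.426), erythroid cells (24.5 to 67.0) and cholangiocytes (164 to 301) were low too, though Epcam, Krt19 and Krt7 of the cholangiocyte list were at 0 at 16 h, where its sum was highest. Barcodes with at least 3 markers of another cell type, by the full rule given with the processing, made up 343 of the 28810 cells, 224 of them at 0 h. Pairs of libraries shared between 22 and 30 barcode sequences of 10000.

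Of the 8 genes, 5 reached 50 CPM in at least 1 library: Slc2a2, Gckr, Khk, Pklr and Mlxipl. Pfkl, Pfkfb1 and Pfkfb3 stayed under 50 CPM in all 5 libraries and were left out of the counts below. All 5 genes that could be counted were lower in each of the 4 fasted libraries than in the fed one. Of all genes tested, 1533 of 2948, 1585 of 3019, 1495 of 2994 and 1543 of 2980 were lower in time order. These 4 comparisons share the fed library. Their courses differed: Pklr and Mlxipl stayed low, Slc2a2 was lowest at 8 h and near its fed level at 16 and 24 h, Khk was lowest at 16 h, and Gckr moved least.

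Sequences are shown for Pklr and Mlxipl, the pair that stayed low, and for Slc2a2, which did not. Each is the stretch just before an annotated start (RefSeq, GRCm38.p6, plus strand), and parts that lie in an annotated exon were left out. The Pklr stretch, chr3:89136373-89136571, belongs to the downstream one of its 2 starts in the table. The Mlxipl stretch is chr5:135089640-135089889, before the upstream one of its 2 starts. The Slc2a2 stretch is chr3:28697653-28697902. Capitals mark a match to the letters searched.
Pklr: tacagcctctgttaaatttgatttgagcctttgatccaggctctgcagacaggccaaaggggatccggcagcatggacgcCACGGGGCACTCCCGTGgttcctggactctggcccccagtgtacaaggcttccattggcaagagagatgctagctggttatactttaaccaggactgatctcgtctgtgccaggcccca
Mlxipl: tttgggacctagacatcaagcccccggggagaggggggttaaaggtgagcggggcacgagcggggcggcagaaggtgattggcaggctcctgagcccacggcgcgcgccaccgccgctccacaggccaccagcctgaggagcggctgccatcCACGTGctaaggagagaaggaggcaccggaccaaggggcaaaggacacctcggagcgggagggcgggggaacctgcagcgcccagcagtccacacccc
Slc2a2: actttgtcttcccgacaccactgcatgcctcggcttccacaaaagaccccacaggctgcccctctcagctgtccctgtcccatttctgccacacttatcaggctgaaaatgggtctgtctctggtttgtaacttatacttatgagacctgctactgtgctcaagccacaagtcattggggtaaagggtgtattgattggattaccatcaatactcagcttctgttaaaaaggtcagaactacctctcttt
Both strands of the 250 bases before each of 32851 annotated starts were searched, and all 8 genes had a start in that table (14 starts in all).

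The letters CACGNG followed, after a spacer of 5 bases, by their reverse complement CNCGTG, a pair of E-box-like sequences of the kind known as a carbohydrate response element, stood before 0.0396% of all starts. Among the 8 genes they stood before Pklr alone, 170 to 154 bases ahead of its downstream start. The plain E-box CACGTG stood before 6.02% of all starts. It was found before a start of Khk, Pfkfb3 and Mlxipl, in Mlxipl 98 to 93 bases ahead, and in Khk inside an annotated exon. CACGTG does not occur within the Pklr match. The TATA box TATAAA (12.4% of all starts) stood before a start of Pfkfb1 and of Pklr, the latter inside an annotated exon and so not shown. The HNF1 motif was searched as GTTAAT and its reverse complement ATTAAC with 1 base between, and looser forms of it were not searched. It stood before 0.00913% of all starts and before none of the 14. With so rare a pattern this does not show that HNF1 sites are absent. The Slc2a2 stretch held none of the 4 motifs searched. The 3' counts do not tell transcripts from different starts of a gene apart.

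Slc2a2 (ENSMUSG00000027690, chr3:28697903-28731359 on the plus strand, GRCm38 as mm10) dipped and came back. Its level was 646 CPM at 0 h (95% interval 638 to 654), and 390 (384 to 395), 219 (214 to 224), 587 (579 to 595) and 610 (602 to 618) CPM in the fasted libraries in time order. No 2 neighbours in this order of levels overlapped in their intervals. The 8 h library was 2.95-fold below the fed one, a log2 ratio of -1.56 (-1.60 to -1.52), and the 4 h library 1.66-fold below it. The 16 h and 24 h libraries were 1.10-fold and 1.06-fold below fed, differences larger than counting error alone and small beside the dip. The summed level of 4 nuclear RNAs (Malat1, Neat1, Meg3 and Kcnq1ot1) was lowest at 8 h too, at 1349 CPM beside 3632 to 6028 CPM in the other libraries, and its part in the dip was not tested.

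The step from 8 to 16 h was the one 2-fold step of Slc2a2 between successive libraries, a log2 ratio of 1.42 (1.38 to 1.46). In that comparison 11.3% of the genes tested were at least 2-fold higher. Slc2a2 was the one of the 5 genes counted there, and none was 2-fold lower, beside 9.74% of all genes. Between 4 and 8 h none of the 5 passed 2-fold in either direction, beside 2.22% of all genes lower and 1.11% higher. None passed between 16 and 24 h either, beside 6.92% lower and 7.52% higher.

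Gckr (ENSMUSG00000059434, chr5:31297443-31327314, plus strand) had the flattest course of the 5. Its level was 103 CPM at 0 h (99.9 to 106), and 60.4 (58.1 to 62.7), 77.2 (74.3 to 80.2), 90.4 (87.2 to 93.6) and 77.4 (74.6 to 80.3) CPM at 4, 8, 16 and 24 h. It was lowest at 4 h, 1.71-fold below fed, and the 8 h and 24 h levels overlapped in their intervals. Its highest and lowest libraries differed 1.71-fold, so that no comparison passed 2-fold.

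Khk (ENSMUSG00000029162, chr5:30921431-30931248, plus strand), which starts fructose breakdown, was lowest at 16 h. It stood at 907 CPM at 0 h (897 to 916), and 567 (560 to 574), 626 (618 to 635), 389 (382 to 395) and 680 (671 to 688) CPM in the fasted libraries in time order. None of these intervals overlapped. The 16 h library was 2.33-fold below fed, a log2 ratio of -1.22 (-1.25 to -1.19), and the 24 h library 1.33-fold below it.

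**Figure D1:**
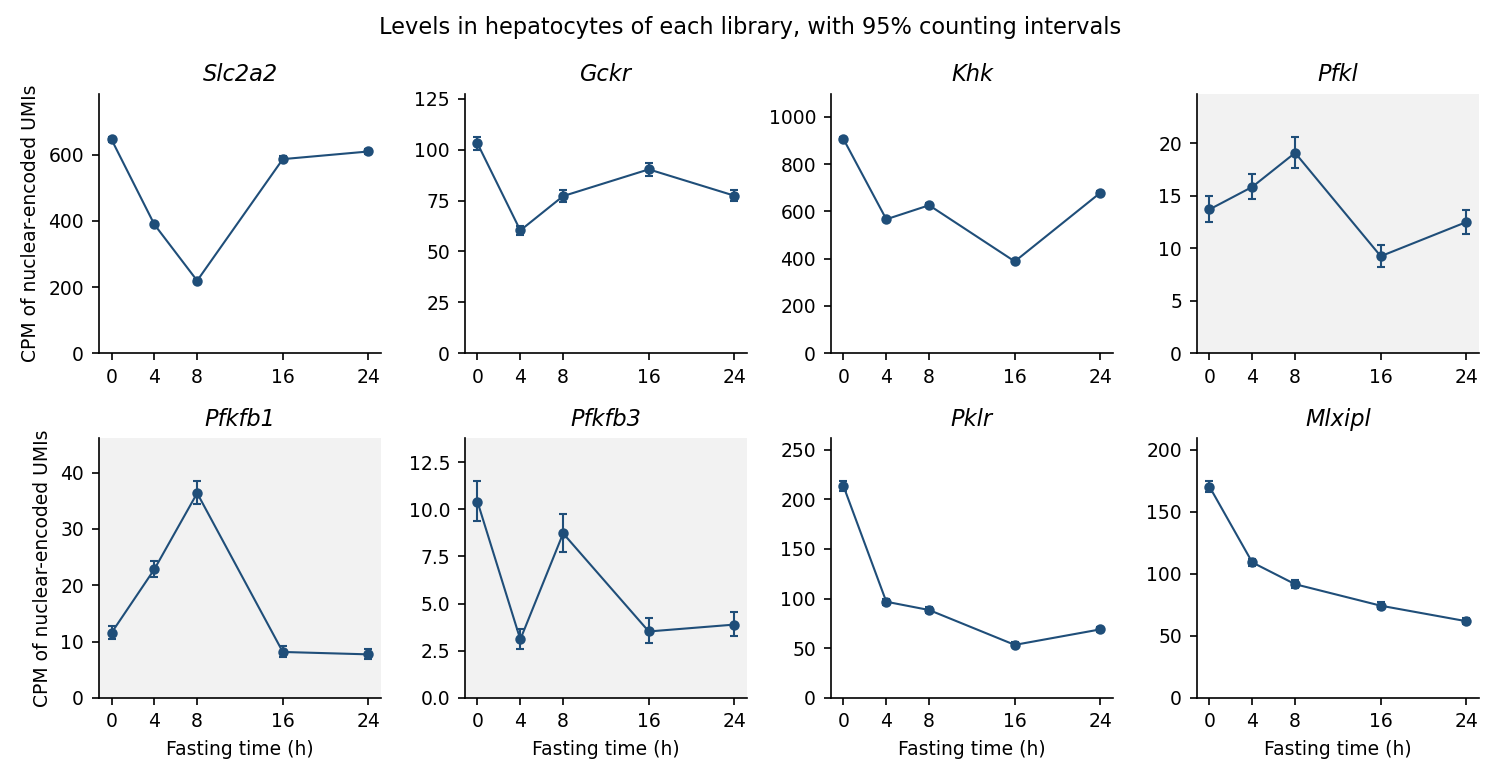
Levels of the 8 genes in CPM of nuclear-encoded UMIs (vertical axes, each starting at 0) against fasting time in h, 1 library per point, with 95% counting intervals as bars. Grey panels are the 3 genes under 50 CPM in every library; Pklr and Mlxipl are highest at 0 h and low in all 4 fasted libraries, while Slc2a2 dips to 219 CPM at 8 h and stands at 610 CPM at 24 h.

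The 3 genes of the phosphofructokinase step were scarce, and their folds are read with that in mind. Pfkfb1 (ENSMUSG00000025271, chrX:150588229-150643878, plus strand) was the one gene of the set more than 2-fold above fed in any library, at 8 h. It stood at 11.5 CPM at 0 h (10.5 to 12.7), and 22.8 (21.5 to 24.2), 36.3 (34.3 to 38.4), 8.14 (7.21 to 9.17) and 7.72 (6.85 to 8.66) CPM at 4, 8, 16 and 24 h. The 8 h library was 3.15-fold above fed, a log2 ratio of 1.66 (1.496 to 1.82). From 8 to 16 h the log2 ratio was -2.16 (-2.35 to -1.97), and the 16 h and 24 h levels overlapped.

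Pfkl (ENSMUSG00000020277, chr10:77986947-78010083, minus strand) had a similar course at smaller size. Its level was 13.7 CPM at 0 h (12.6 to 14.9), and 15.9 (14.7 to 17.1), 19.1 (17.7 to 20.6), 9.25 (8.25 to 10.3) and 12.5 (11.4 to 13.7) CPM in the fasted libraries in time order. The 0 h level overlapped with those at 4 and 24 h, and the log2 ratio of 24 h to fed was -0.13 with an interval that held 0 (-0.32 to 0.05).

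Pfkfb3 (ENSMUSG00000026773, chr2:11471433-11554077, minus strand) was low in 3 of the 4 fasted libraries. It stood at 10.4 CPM at 0 h (9.40 to 11.5), and 3.10 (2.61 to 3.65), 8.72 (7.76 to 9.78), 3.52 (2.91 to 4.22) and 3.89 (3.28 to 4.57) CPM at 4, 8, 16 and 24 h. The intervals at 0 and 8 h overlapped, as did those of neighbouring levels at 4, 16 and 24 h. Endothelial-like barcodes, of which the fed library held 288 and the others 8 to 60, carried 32.6 CPM of Pfkfb3 at 0 h (19.3 to 51.5). With barcodes that carried markers of other cell types left out, the log2 ratio of 4 h to fed was -1.72, beside -1.75 with them.

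Because free RNA in a droplet can give any cell a UMI, the share of cells with at least 1 UMI was set beside that in endothelial-like cells, each cell thinned to 1000 nuclear-encoded UMIs. At 0 h 7657 hepatocytes and 288 endothelial-like cells were used, with median depths of 5532 and 1760 UMIs before thinning. The 169 endothelial-like barcodes inside the gate were taken out of the hepatocytes. The other endothelial-like cells lay under 2% mitochondrial UMIs, as that group had no lower limit. Slc2a2 was itself lower in barcodes under 1% than in the gated cells at 0 h (160 and 646 CPM). The part of the mitochondrial share in the comparison was not tested. Slc2a2 was seen in 45.1% of the hepatocytes (exact 95% interval 44.0 to 46.3) and 6.25% of the endothelial-like cells (3.75 to 9.70). Khk was seen in 58.2% (57.1 to 59.3) and 23.96% (19.1 to 29.3). Unthinned, the hepatocyte shares were 84.4% for Slc2a2 and 92.2% for Khk.

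Pklr was seen in 17.9% of hepatocytes (17.1 to 18.8) and 12.8% of endothelial-like cells (9.21 to 17.3), Mlxipl in 15.8% (14.97 to 16.6) and 5.56% (3.21 to 8.87), and Gckr in 9.72% (9.06 to 10.4) and 6.94% (4.29 to 10.5). The intervals overlapped for Pklr and Gckr and not for Mlxipl. Pfkl, at 1.33% (1.09 to 1.61) beside 2.08% (0.768 to 4.48), did not exceed the endothelial-like share. Pfkfb3 was seen in 0.940% (0.736 to 1.18) and 3.13% (1.44 to 5.85), and since its level was itself higher in endothelial-like barcodes than in hepatocytes, this share gives no background for it. Pfkfb1, at 1.149% (0.923 to 1.41) beside 0.694% (0.0842 to 2.49), could not be separated from that share at this depth. Each thinned share is from 1 random draw, which the interval does not cover. Unthinned shares in hepatocytes were 56.2% for Pklr, 51.2% for Mlxipl, 37.1% for Gckr, 6.40% for Pfkl, 4.60% for Pfkfb3 and 5.43% for Pfkfb1. The fasted libraries held too few endothelial-like cells for this comparison (8, 18, 54 and 28 in time order after thinning).

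Pklr (ENSMUSG00000041237, chr3:89136142-89146784, plus strand) was the gene of the set with the deepest and most lasting difference from fed. Its level was 213 CPM at 0 h (209 to 218), and 96.8 (94.0 to 99.7), 88.5 (85.3 to 91.7), 53.3 (50.9 to 55.9) and 69.0 (66.3 to 71.7) CPM in the fasted libraries in time order. No intervals overlapped, and the fed library stood 2.20-fold above the highest of the others. The log2 ratios to fed were -1.14 (-1.19 to -1.09), -1.27 (-1.33 to -1.21), -2.00 (-2.07 to -1.93) and -1.63 (-1.69 to -1.57). It was at least 2-fold lower than fed in all 4 fasted libraries, as were 59 of the 2757 genes tested in all 4 (2.14%). These 4 ratios share the fed library.

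Mlxipl (ENSMUSG00000005373, chr5:135089890-135138382, plus strand) was lower in each later library than in the one before. It stood at 170 CPM at 0 h (166 to 175), and 109 (106 to 112), 91.7 (88.5 to 94.9), 74.3 (71.4 to 77.3) and 61.8 (59.3 to 64.4) CPM at 4, 8, 16 and 24 h, with no overlap of intervals. The 24 h library was 2.76-fold below fed, a log2 ratio of -1.46 (-1.53 to -1.39). It shared its clock hour with the fed library.

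Counted by the rule of at least 2-fold with 50 CPM or more in either library, 1 of the 5 genes was lower than fed at 4 h (Pklr), beside 5.97% of all genes tested. At 8 h 2 of 5 were lower (Slc2a2 and Pklr), beside 11.8%, and at 16 h 3 of 5 (Khk, Pklr and Mlxipl), beside 4.04%. At 24 h 2 of 5 were lower (Pklr and Mlxipl), beside 10.6%. None of the 5 was 2-fold higher at any time, beside 5.73%, 7.95%, 3.31% and 6.68% of all genes in time order. The median log2 ratio of the 5 was -0.73, -0.89, -1.20 and -0.42, and that of all genes tested was -0.03, -0.04, 0.001 and -0.03.

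The size of these ratios depended on the scaling. With TMM scaling (trimmed mean of M-values) the median log2 ratio over all genes was 0.20, 0.19, 0.05 and 0.15 in time order. With CPM it was -0.01, -0.06, -0.01 and -0.03 over genes with 50 CPM in at least 1 library and UMIs in every library. Under TMM 71.7%, 62.6%, 53.5% and 56.4% of the genes called 2-fold were higher, beside 49.0%, 40.2%, 45.0% and 38.6% with CPM, and with all UMIs in the denominator 35.8% were higher at 4 h. No gene of the 5 was 2-fold lower at 4 h under TMM, where the log2 ratio of Pklr was -0.93. Slc2a2 at 24 h turned from -0.08 to 0.09. All other ratios of the 5 genes to fed kept their sign under the 11 other settings tried.

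Levels also moved with the mitochondrial share of the barcodes. In cells with 10 to 20% mitochondrial UMIs alone, the Pklr levels in time order were 212, 103, 90.1, 53.7 and 76.4 CPM, and those of Mlxipl 175, 113, 93.9, 73.9 and 62.6 CPM. Slc2a2 stood at 671, 362, 222, 593 and 625 CPM there, and Khk at 923, 593, 607, 388 and 654 CPM. In the smaller group of gated cells with 2 to 5%, 75 to 606 per library, the courses were other ones. Khk stood there at 481, 635, 701, 283 and 900 CPM, so that 3 fasted libraries were above fed. Slc2a2 was at 170, 107, 173, 183 and 127 CPM, with no low point at 8 h, and Gckr at 89.8, 59.9, 96.2, 49.96 and 60.7 CPM. Pklr remained below fed, at 136 CPM and then 46.0, 76.5, 74.9 and 31.1 CPM. At 16 h, with 75 cells, it had 9 UMIs, and its interval (34.3 to 142 CPM) overlapped that at 0 h (115 to 159 CPM). Mlxipl was at 85.4, 51.5, 112, 8.33 and 26.2 CPM, with 1 UMI at 16 h. Its 8 h level was above fed, with overlapping intervals (95.6 to 131 and 69.4 to 104 CPM). At 5 to 10% Slc2a2 was lowest at 4 h (183 CPM, beside 222 CPM at 8 h). Mlxipl stood there at 165, 48.6, 86.2, 67.7 and 48.0 CPM, below fed throughout but not lower in each later library.

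The rest of the pathway was taken from 5 fixed lists of other hexose transporters, hexokinases, upper and lower glycolysis, and fructose and polyol enzymes. Of the 33 genes taken from them, 11 could be counted at each time against fed, and 3, 2, 3 and 2 of these were at least 2-fold lower in time order, with none higher. Their median log2 ratio was 0.05, 0.20, -0.49 and -0.13. Those lower were Gpi1 and Tkfc at all 4 times, Aldoa at 4 h and Eno1 at 16 h. Gpi1, which turns glucose phosphate into fructose phosphate, stood at 355 CPM and then at 136, 157, 107 and 106 CPM.

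Of the 3 fructose and polyol genes counted, Tkfc was the one at least 2-fold lower. Tkfc, which phosphorylates the glyceraldehyde made from fructose, stood at 1041 CPM at 0 h and at 351, 369, 256 and 419 CPM in fasting. Sord, which makes fructose from sorbitol, did not follow it, with log2 ratios of 0.53, 0.21, -0.10 and 0.46. Khk itself lay between these, at -0.68, -0.53, -1.22 and -0.42.

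Of the 5 lower glycolysis genes counted beside Pklr, none was 2-fold lower at 4, 8 or 24 h, and 1 was at 16 h, the enolase Eno1 (log2 ratio -1.15). Ldha, lactate dehydrogenase, was above fed in all 4 libraries, with a highest log2 ratio of 0.95 at 24 h. Among 4 genes of glucose production, Pck1 was 2-fold higher at all 4 times (log2 ratios 2.15, 2.03, 2.06 and 2.39), Slc37a4 was 2-fold lower at 16 h alone (-1.18), and G6pc and Fbp1 stayed within 2-fold.

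**Figure D2:**
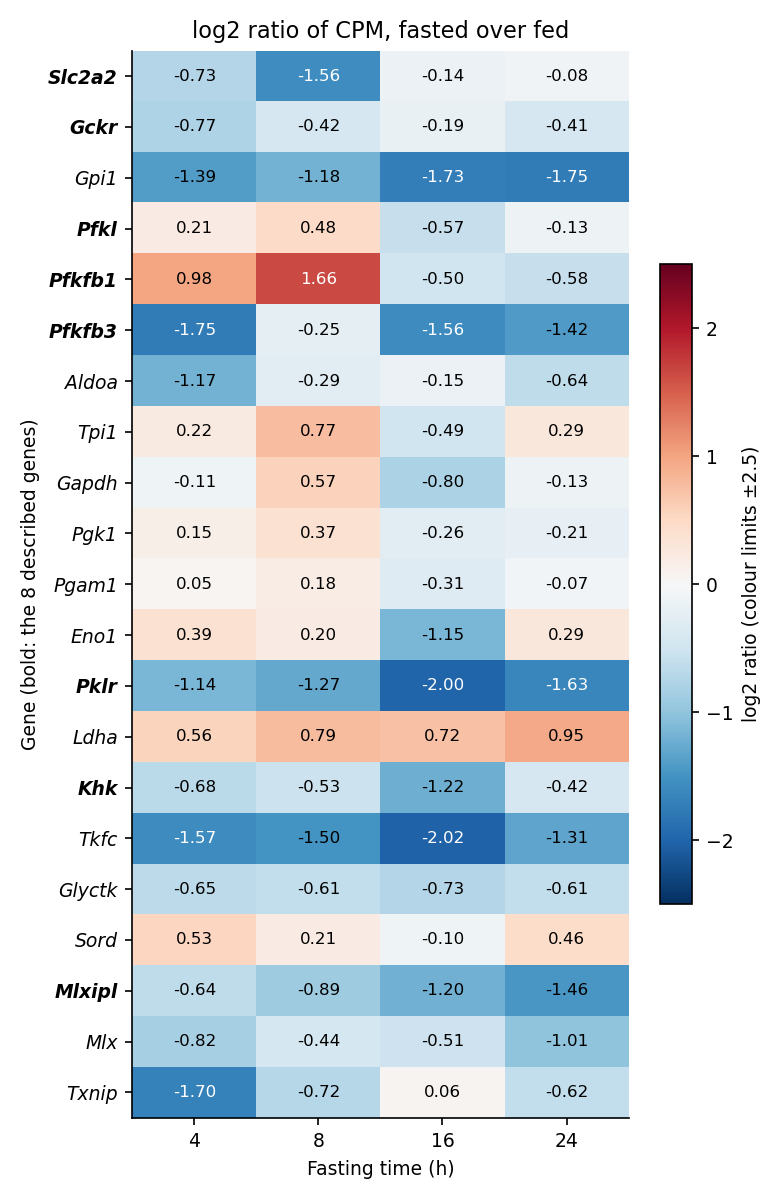
log2 ratio of CPM, each fasted library over the fed one (columns, fasting time in h), for the 8 described genes in bold and for pathway genes that reached 50 CPM, in pathway order from uptake to lactate, then fructose enzymes and ChREBP with its partner; blue is lower than fed, with the value printed in each field. Gpi1, Pklr and Tkfc are below -1 in every column, and Ldha is above 0 in every column.

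Of the partners and reporters of ChREBP, Mlx, its dimer partner, had log2 ratios of -0.82, -0.44, -0.51 and -1.01. Txnip, a gene known to respond to sugar, had -1.70, -0.72, 0.06 and -0.62, so that its level at 16 h was near fed while Mlxipl and Pklr were low. Of 12 fixed regulators, 9, 9, 8 and 9 could be counted in time order, of which 1, 2, 2 and 2 were 2-fold lower and 1, 2, 0 and 1 higher, with median log2 ratios of 0.05, 0.34, -0.21 and 0.18. Srebf1, the lipogenic factor known to follow insulin, was the lowest of them at all 4 times and stood at 438 CPM at 0 h and at 88.4, 22.9, 64.0 and 70.8 CPM in fasting. The highest was Foxo1, a factor known to be held back by insulin, at 4, 8 and 24 h (log2 ratios 1.45, 1.70 and 1.24), and the insulin receptor gene Insr at 16 h (0.63). Of the 5 pentose phosphate genes counted, 1, 2, 2 and 2 were 2-fold lower in time order. Pgd, an enzyme of its oxidative branch, was the lowest of them each time, at -1.48, -1.69, -2.09 and -2.20, and the highest were Pgls at 4, 8 and 24 h (0.66, 0.91 and 0.82) and H6pd at 16 h (0.45).

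For each of the 5 genes, the 3 genes with the most similar course were sought by the root-mean-square difference of the 4 log2 ratios to fed, among 2681 genes. Nearest to Pklr were Gpi1 (0.20), Ppp1r3b (0.26), which encodes a glycogen-targeting phosphatase subunit, and Lrrc28 (0.28). Mlxipl ranked 13 for Pklr, at 0.52. Nearest to Mlxipl were Calr (0.11), Acsl4 (0.19) and Cct3 (0.20). Nearest to Slc2a2 were Ugp2 (0.19), an enzyme of glycogen synthesis, Cadm1 (0.19) and Abcc3 (0.21). Nearest to Khk were Higd1a (0.16), Dgat2 (0.20) and Fmc1 (0.21), and nearest to Gckr Atp5g3 (0.08), Srebf2 (0.10) and Myl6 (0.12). The likeness is over 4 values that share the fed library and is a description.

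Along the liver lobule, Cyp2f2 marks hepatocytes near the portal vein and Cyp2e1 those near the central vein. Cells of each library were ranked by scaled Cyp2e1 minus scaled Cyp2f2 and cut into 3 equal parts, which are ranges of a score and not positions in tissue. Slc2a2 was higher in the Cyp2f2-high part in all 5 libraries, and no gene of the 5 was called higher in the Cyp2e1-high part. Khk leaned the same way from 0 to 16 h. Gckr and Mlxipl differed by less than 25% between these parts before 24 h, and Pfkfb1, though scarce, leaned to the Cyp2e1-high part at 4, 8 and 16 h.

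The outer parts differed in more than this axis. Median UMI counts were lower in the Cyp2e1-high than in the Cyp2f2-high part in each library: 2901 and 5854 at 0 h, 3034.5 and 18686 at 4 h, 11042 and 15535 at 8 h, 3879 and 4318.5 at 16 h, and 2962 and 11217.5 at 24 h. At 24 h the Cyp2e1-high part also had a lower median mitochondrial share (10.8% and 18.4%). It held 2406 CPM of Cyp2e1, beside 4197 to 8902 CPM in the other libraries. It had more of the portal gene Sds (651 and 399 CPM) and less of Glul, a gene of the cells next to the central vein (45.2 and 54.2 CPM). Most landmark genes kept the order of the axis at 24 h, by the rule for the outer parts given below. Of 12 portal landmark genes tested, 9 were called higher in the Cyp2f2-high part and 1 in the Cyp2e1-high part. Of 8 central ones tested, 6 were called higher in the Cyp2e1-high part and none in the Cyp2f2-high part. In the whole 24 h library the 14 central landmark genes summed to 606 CPM, beside 1601 to 2593 CPM in the others, and 7 of the 9 counted were 2-fold lower than fed. The part of this in the 24 h values was not tested. Markers of other cell types were not even between the parts. All 10 endothelial markers were higher in the Cyp2e1-high part in each library, with a summed level of 356 CPM beside 20.3 CPM at 0 h and of 39.9 to 92.6 CPM beside 2.99 to 13.1 CPM in the fasted libraries. The 10 macrophage markers summed to 161 and 7.23 CPM at 0 h. The 6 cholangiocyte markers summed higher in the Cyp2f2-high part in all 5 libraries (202 and 148 CPM at 0 h, 347 and 211 CPM at 16 h), and the 5 erythroid markers at 0, 4, 8 and 24 h (38.8 and 32.6 CPM at 0 h). Of the 9 hepatocyte markers, 8 or 9 were higher in the Cyp2f2-high part in each library, with summed levels of 133294 and 89298 CPM at 0 h. Because depth differed, cells were also ranked within 10 equal parts by UMI count, a setting chosen after the data had been seen, and those values are given beside the first where named.

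Slc2a2 stood at 702 CPM in the Cyp2f2-high and 526 CPM in the Cyp2e1-high part at 0 h, and at 431 and 340 CPM at 4 h. At 8 h it stood at 240 and 178 CPM, at 16 h at 660 and 469 CPM, and at 24 h at 704 and 362 CPM. The log2 ratios of the Cyp2e1-high to the Cyp2f2-high part were -0.41 (-0.46 to -0.37), -0.34 (-0.40 to -0.29), -0.43 (-0.52 to -0.34), -0.49 (-0.55 to -0.44) and -0.96 (-1.02 to -0.90) in time order. Ranked within parts by UMI count they were -0.22, -0.27, -0.36, -0.43 and -0.38, under 25% at 0 and 4 h. The direction thus held in every library, and the size at 24 h was no longer apart from the others. Without barcodes with markers of other cell types the log2 ratios were -0.36, -0.34, -0.42, -0.49 and -0.94.

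**Figure D3:**
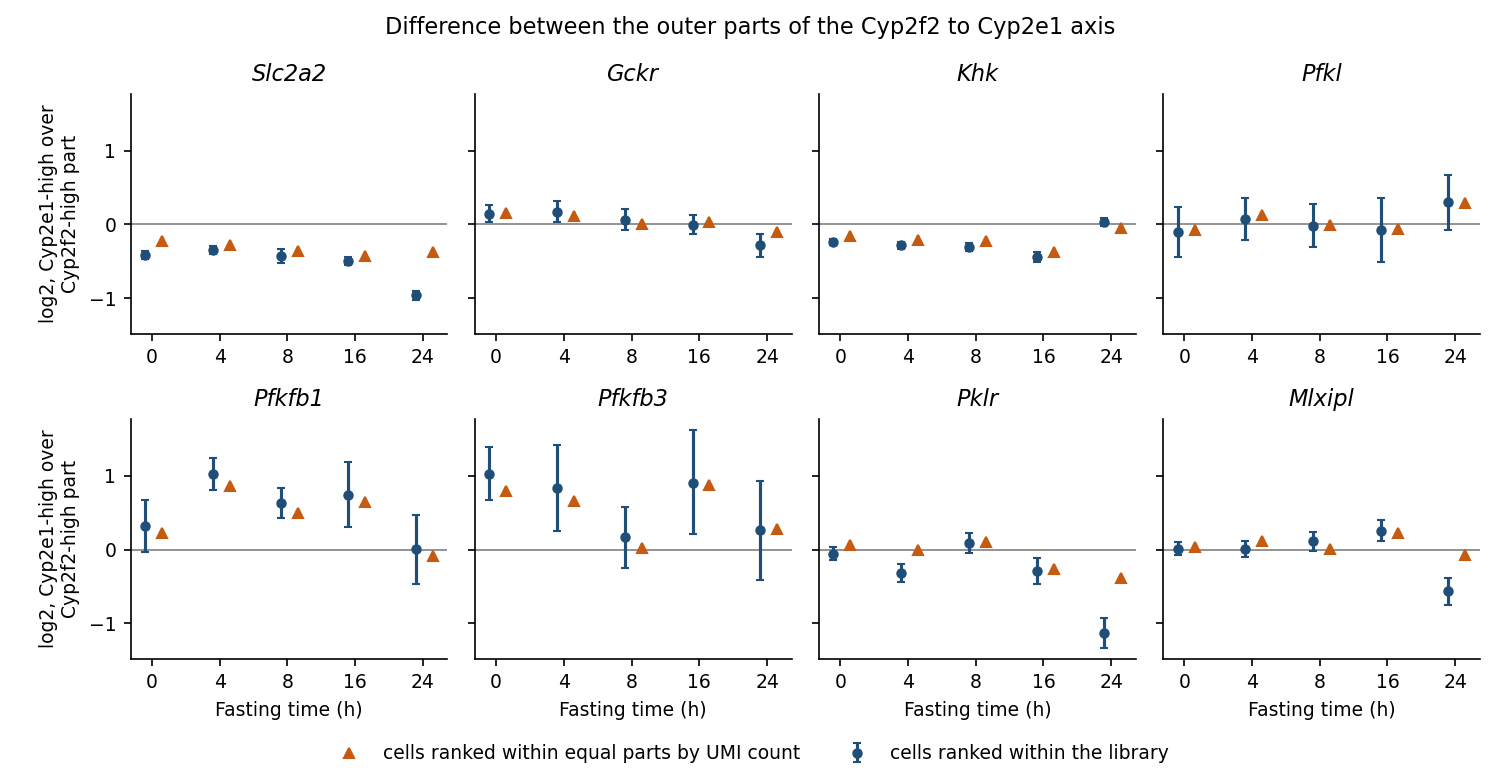
log2 ratio of CPM between the Cyp2e1-high and the Cyp2f2-high part (vertical axis; below 0 is higher in the Cyp2f2-high part) in each library (fasting time in h) for the 8 genes. Circles with 95% counting intervals are cells ranked within the library, and triangles are cells ranked within 10 equal parts by UMI count; Slc2a2 lies below 0 throughout, and the low 24 h values of Pklr and Mlxipl (-1.13 and -0.57) move to -0.39 and -0.08.

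By a rule of at least 25% higher in one outer part than in the other, with 50 CPM or more in either, 1 of 5 genes (Slc2a2) was called higher in the Cyp2f2-high part at 0 h, beside 5.95% of all genes. The count was 1 at 4 h (10.8% of all genes) and 1 at 8 h (5.55%), again Slc2a2. It was 2 at 16 h (5.91%), Slc2a2 and Khk, and 3 at 24 h (33.2%), Slc2a2, Pklr and Mlxipl. None was called higher in the Cyp2e1-high part, beside 17.2%, 18.6%, 9.96%, 17.1% and 28.3% of all genes in time order. At 24 h the share of all genes called on either side was the highest of the 5 libraries with this ranking. Ranked within parts by UMI count, the share called higher in the Cyp2f2-high part at 24 h was 3.61% in place of 33.2%, beside 2.32%, 5.73%, 3.52% and 5.16% at 0, 4, 8 and 16 h. On the Cyp2e1-high side 24 h was still the highest, at 16.6% beside 6.96%, 10.8%, 6.48% and 14.5%. In the Cyp2f2-high part 2 of the 5 genes were then called at 24 h, Slc2a2 and Pklr. The share of all genes called in that part at 24 h was 7.49% with at least 3000 UMIs and 8.07% with 5 to 30% mitochondrial UMIs. Other settings raised it, to 51.4% with 2 to 15% mitochondrial UMIs, 47.2% with the mean of per-cell CPM and 45.8% with no lower mitochondrial limit.

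Khk stood at 953 and 809 CPM in the Cyp2f2-high and Cyp2e1-high parts at 0 h and at 430 and 317 CPM at 16 h. Its log2 ratios were -0.24, -0.28, -0.31, -0.44 and 0.03, with an interval that held 0 at 24 h (-0.01 to 0.08). Ranked within parts by UMI count they were -0.16, -0.21, -0.23, -0.38 and -0.05. Of the 3 other fructose and polyol genes counted at 16 h, Tkfc was called higher in the Cyp2f2-high part (-0.60), Sord in the Cyp2e1-high part (0.59) and Glyctk in neither (-0.31). The scarce Akr1b3 stood at 1.03. With cells ranked within parts by UMI count, Tkfc was at -0.51, Sord at 0.54, Glyctk at -0.28 and Akr1b3 at 0.82.

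Pklr was nearly even between these parts at 0 h, with 209 CPM in the Cyp2f2-high and 201 CPM in the Cyp2e1-high part, and at 8 h (87.2 and 92.5 CPM). It leaned to the Cyp2f2-high part at 4 h, with a log2 ratio of -0.32 (-0.44 to -0.20), and at 16 h, with -0.29 (-0.46 to -0.11), both under 25%. These were -0.01 and -0.26 when cells were ranked within parts by UMI count. At 24 h it stood at 74.2 and 34.0 CPM, a log2 ratio of -1.13 (-1.33 to -0.92). Ranked within parts by UMI count that ratio was -0.39, and with 5 to 30% mitochondrial UMIs it was -0.63. Mlxipl was at 173 and 175 CPM at 0 h and at 66.0 and 44.5 CPM at 24 h, a log2 ratio of -0.57 (-0.76 to -0.38) that was -0.08 and -0.33 under the same 2 settings. At 16 h Mlxipl leaned the other way, at 0.26 (0.11 to 0.40), and at 0.23 when ranked within parts by UMI count. The part of depth in these 24 h differences beyond those values was not tested.

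Gckr had log2 ratios of 0.15, 0.17, 0.06, -0.003 and -0.28 between these parts. The intervals excluded 0 at 0 h (0.03 to 0.27), 4 h (0.04 to 0.31) and 24 h (-0.44 to -0.13), and none reached 25%. With cells ranked within parts by UMI count the 5 values were 0.16, 0.11, 0.01, 0.03 and -0.10. Pfkfb1 stood at 17.1 CPM in the Cyp2f2-high and 34.8 CPM in the Cyp2e1-high part at 4 h, a log2 ratio of 1.02 (0.80 to 1.24), and at 31.5 and 48.8 CPM at 8 h (0.63, 0.43 to 0.84). Ranked within parts by UMI count its ratios at 4, 8 and 16 h were 0.86, 0.49 and 0.64. Its interval held 0 at 0 and 24 h. Pfkfb3 had 8.27 and 16.9 CPM at 0 h (1.03, 0.67 to 1.39), and log2 ratios of 0.84 (0.25 to 1.42) at 4 h and 0.91 (0.21 to 1.63) at 16 h, while its intervals at 8 and 24 h held 0. With cells ranked within parts by UMI count the values at 0, 4 and 16 h were 0.79, 0.66 and 0.88. The endothelial and macrophage markers given above were higher in the same part, and without barcodes that carried markers of other cell types the values of Pfkfb3 were 0.94, 0.84 and 0.97. Pfkl differed by less than its counting error in all 5 libraries.

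Several fasting differences had the same direction in both outer parts, and at 24 h their sizes lay apart, by less when cells were ranked within parts by UMI count. From 0 to 8 h, Slc2a2 had a log2 ratio of -1.55 (-1.61 to -1.49) in the Cyp2f2-high and -1.56 (-1.64 to -1.48) in the Cyp2e1-high part. From 0 to 16 h, Pklr had -1.94 (-2.07 to -1.81) and -2.17 (-2.32 to -2.02), and Khk -1.15 (-1.20 to -1.10) and -1.35 (-1.41 to -1.29). Mlxipl had -1.33 (-1.45 to -1.21) and -1.08 (-1.20 to -0.96). Pfkfb1 at 8 h had 1.53 (1.248 to 1.81) and 1.84 (1.55 to 2.13). From 0 to 24 h, Slc2a2 had 0.004 (-0.04 to 0.04) in the Cyp2f2-high and -0.54 (-0.61 to -0.47) in the Cyp2e1-high part, and Pklr -1.50 (-1.60 to -1.39) and -2.57 (-2.77 to -2.37). Mlxipl had -1.39 (-1.50 to -1.28) and -1.98 (-2.15 to -1.80) at that time, and Gckr -0.30 (-0.41 to -0.18) and -0.73 (-0.89 to -0.57). Khk had the reverse order, at -0.50 (-0.54 to -0.46) and -0.23 (-0.28 to -0.18). Pfkfb3 at 8 h had 0.13 (-0.27 to 0.53) and -0.74 (-1.13 to -0.35). With cells ranked within parts by UMI count, the 24 h values in the Cyp2f2-high and Cyp2e1-high parts were -0.005 and -0.16 for Slc2a2, -1.55 and -2.00 for Pklr, -1.43 and -1.54 for Mlxipl, -0.32 and -0.58 for Gckr, and -0.46 and -0.35 for Khk. Those of Pfkfb3 at 8 h were 0.12 and -0.64. The intervals of Mlxipl then overlapped (-1.55 to -1.31 and -1.66 to -1.42). The differences between the parts were not tested.

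The gate left out barcodes with under 1% mitochondrial UMIs, of which there were 1656, 4788, 523, 194 and 4414 in time order. Slc2a2 was 3.15-fold to 7.22-fold lower in them than in the gated cells of the same library. It stood there at 160, 76.8, 50.4, 187 and 84.5 CPM. Hepatocyte markers were lower in them too: 8, 7, 6, 5 and 7 of 9 by at least 2-fold in time order, with a summed level of 28304 to 55178 CPM beside 96861 to 127215 CPM in the gated cells. Alb, which encodes serum albumin, was 2.68-fold to 6.77-fold lower, and Apob, the main lipoprotein protein, 3.80-fold to 9.26-fold. Mlxipl was 1.88-fold to 3.34-fold lower in them and Pklr 1.31-fold to 3.02-fold lower, at 16 h within counting error. Khk was lower at 0 h (578 and 907 CPM) and higher at 4 h (721 and 567 CPM) and 24 h (974 and 680 CPM), each by under 2-fold, and within counting error at 8 and 16 h.

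By the 2-fold rule 2, 3, 2, 2 and 3 of the 5 genes were lower in these barcodes than in the gated cells, beside 28%, 33.5%, 46.2%, 23.6% and 30.1% of all genes, and none was higher, beside 20.8%, 21.2%, 16.9%, 17.6% and 23.1%. The nuclear RNA Neat1 was lower in them at 0, 4, 16 and 24 h, by 5.00-fold to 16.2-fold, and was not at 8 h. Malat1, a more abundant nuclear RNA, stood at 5009, 810, 1834, 1744 and 1619 CPM in them and at 4528, 3388, 1056, 3437 and 2982 CPM in the gated cells, 2-fold lower at 4 h alone. These barcodes were shallower, with median counts of 1144.5 to 2664.5 UMIs. With no lower limit on the mitochondrial share, the log2 ratio of Slc2a2 to fed at 24 h was -0.46 in place of -0.08, and that of Pklr at 16 h -1.94 in place of -2.00.

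**Figure D4:**
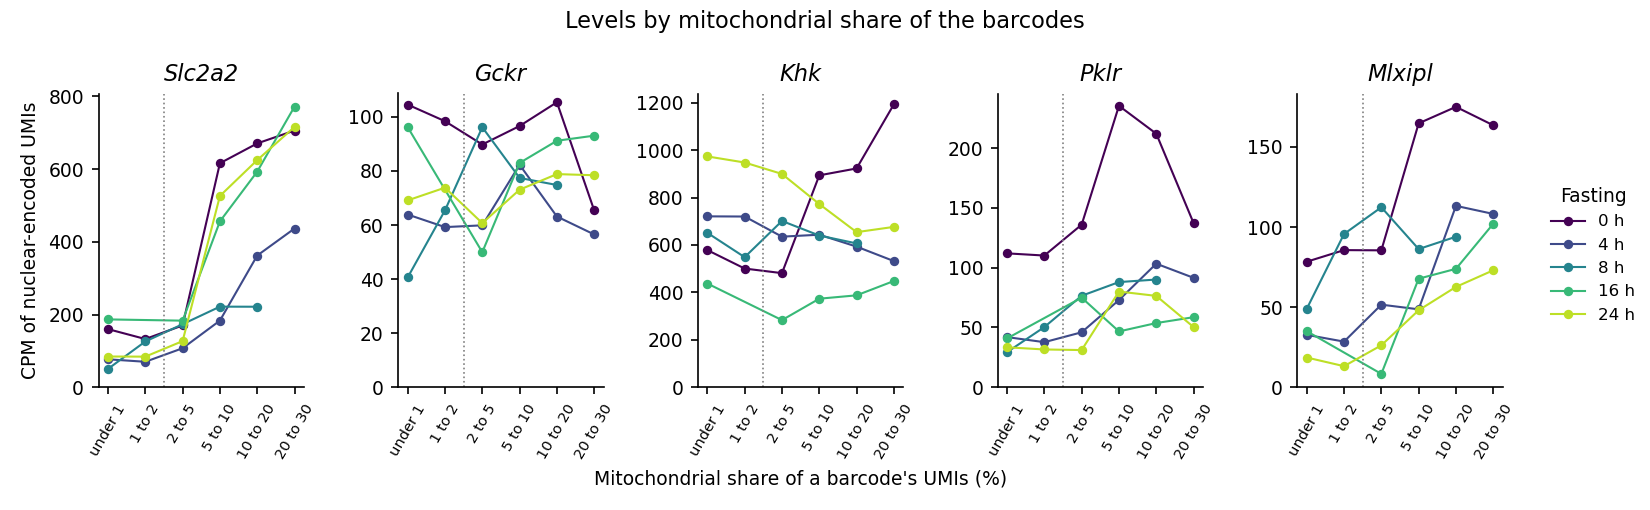
Levels of the 5 genes that reached 50 CPM (vertical axes, CPM of nuclear-encoded UMIs, each from 0) by the mitochondrial share of the barcodes (horizontal axis, %), 1 line per library; groups of under 50 barcodes are not drawn, and the dotted line is the lower limit of the gate. Slc2a2 is lower under 5% than above it in every library (107 to 183 CPM at 2 to 5%), while Gckr and Khk show no common slope.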

How the data were processed

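The deposited matrix held UMI counts per gene and barcode, raw and not normalized. Per the file headers, Cell Ranger 6.0.1 made it. The build was mm10, per the submitters' processing notes. The sources used here do not give the annotation version, barcode filters or any subsampling of reads. Another deposited table assigned 10000 barcodes to each library, and 0 further per-sample columns were found. Total counts per library ran from 40002260 to 68330252. No doublet caller was run, so that doublets remain. Leaving out the 2% of barcodes with most UMIs was 1 of the alternatives.

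UMIs were summed over gated hepatocytes and divided by nuclear-encoded UMIs (13 mt- genes left out). Ratios have exact conditional binomial intervals, levels exact Poisson intervals and shares exact Clopper-Pearson intervals at 95%. Libraries have no replicates, and there was no test. The calling step recovered the seeded folds in a check on simulated counts. The axis used natural logs of counts per 10000, as z-scores within a library. An endothelial-like barcode carried at least 3 endothelial markers that made up at least 0.2% of its UMIs, and the rule was the same for other cell types. Named genes were the 8 genes, list genes at 50 CPM or more in at least 1 library with the highest or lowest ratio, and the 3 nearest courses. Some further list genes (Gpi1, Aldoa, Sord, Glyctk, Txnip, Mlx, Fbp1 and G6pc) were named after their values were seen. Akr1b3, at 2.47 to 4.50 CPM, was named outside the 50 CPM rule, and some marker, landmark and nuclear RNA genes were named outside these rules too. Some genes of the fixed lists are left out of all list counts and are not reported here. The genes and lists were chosen with earlier results of these data known. The list symbol Tf matched no gene. Aldoa matched 2 features, of which the one with UMIs was used. Positions are those of GENCODE M21 (GRCm38), where all 8 gene IDs matched by symbol. Promoter sequences are from RefSeq, GRCm38.p6. Tools were edgeR 4.0.16 (TMM factors alone), matplotlib 3.10.9, pandas 2.3.3, scipy 1.17.1, numpy 2.4.6 and python 3.11.15.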

Additional observations from a re-analysis of the deposited data

Results flagged for a closer look

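Gckr stood out because its difference between the outer parts had opposite directions in the fed and the 24 h library. The log2 ratio of the Cyp2e1-high to the Cyp2f2-high part was 0.15 at 0 h and -0.28 at 24 h, a change of -0.43. The counting interval excluded 0 in both libraries, but each is 1 library and the difference between them was not tested. Ranked within parts by UMI count, the values were 0.16 and -0.10.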

How the results depend on the processing

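No paired analysis was possible because each time point was 1 library. Of 352 ratios to fed under other settings (32 results), 258 moved by less than their counting interval, 93 moved by more and 1 turned, Slc2a2 at 24 h under TMM scaling (0.0936). Of 440 ratios between the outer parts (40 results), 332 moved by less, 106 by more and 2 turned, Gckr (-0.32) and Pfkfb3 (-0.35) at 4 h with 2 to 15% mitochondrial UMIs. The cause was not tested. The count of genes lower than fed at 4 h, 1 in the report, was 0 under TMM, 2 with 2 to 15% mitochondrial UMIs, 2 with a 10 CPM minimum and 5 with a 1.5-fold rule. At 8 h 1 gene, Pfkfb1, was higher with a 10 CPM minimum, which counts more genes. The count in the Cyp2f2-high part, 1 at 0, 4 and 8 h, 2 at 16 h and 3 at 24 h in the report, became at 0, 4 and 8 h 2, 3 and 2 with outer parts of 5, 4, 3 and 2 with no lower mitochondrial limit, 2, 3 and 2 with the mean of per-cell CPM, and 0, 0 and 0 with the axis from thinned cells. It was 0 at 0, 4, 8 and 16 h with a 1.5-fold rule. At 24 h it was 2 to 4 under the other settings, and 2 with cells ranked within parts by UMI count, where Mlxipl was at -0.08 and the share of all genes was 3.61% in place of 33.2%. At 0 and 4 h it was 0 with cells ranked within parts by UMI count and 0 with at least 3000 UMIs. It was 0 at 0 h with 5 to 30% mitochondrial UMIs. At 4 h it was 4 with 2 to 15% mitochondrial UMIs, 2 without the top 2% of barcodes by UMIs, 2 without barcodes with markers of other cell types, and 0 with the landmark score, which gave 2 at 8 h. The count in the Cyp2e1-high part, 0 in the report, was 1 at 8 and 16 h with outer parts of 5, 1 at 8 and 24 h with no lower mitochondrial limit, 1 at 8 h with the mean of per-cell CPM, and 2, 1, 1 and 1 at 0, 4, 8 and 16 h with a 10 CPM minimum. Settings with 5 to 30% mitochondrial UMIs and with ranks within parts by UMI count were chosen after the data had been seen. Depth limits Pfkl, Pfkfb1 and Pfkfb3 most.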
